A study of Homo sapiens with 4 samples.

Results

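Long intergenic noncoding RNAs (lincRNAs) are transcripts from between protein-coding genes that are not annotated as coding for a protein. The lincRNAs described here are all listed transcripts of the annotated type lincRNA, except those of MALAT1, NEAT1, NORAD, TUG1, H19, GAS5, ZFAS1, DANCR and AL139099.5 and those whose name starts with SNHG. These were 1034 of the 34975 transcripts listed and 728 of the 13300 gene names. The exceptions took out 73 of the 1107 lincRNA transcripts, from 19 gene names. The measurement was RNA immunoprecipitation sequencing (RIP-seq), in which RNAs that come down with an antibody are sequenced. The cells were HCCLM3, an established human hepatocellular carcinoma line, and no other treatment is named for them in the labels. KIAA1429 RIP (2 libraries) used an antibody against KIAA1429, and IgG RIP (2 libraries) used normal IgG, which gives the background of the pull-down. The study asked which RNAs are bound by KIAA1429, and here that question is put to these lincRNAs. Values are FPKM, fragment numbers scaled by transcript length and by the mapped fragments of the library, and they compare levels per length. The number of reads is not known from such values, so an exact 0 is described as listed at 0 and no counting error is given.

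KIAA1429, also called VIRMA, is a large scaffold subunit of the nuclear complex that writes N6-methyladenosine (m6A) on RNA. The complex methylates adenosines within short sequence contexts, of which GGAC is a common one, in both messenger RNAs and long noncoding RNAs. LincRNAs are usually less abundant than messenger RNAs, and known ones act as enzyme components, as hosts of microRNAs, or as regulators of chromatin and of cell growth, several of them in liver cancer.

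Sequences of 3 abundant lincRNAs, of which RMRP and the entries on GL000220.1 hold most of the signal, are given first, read from the GRCh37 genome, 5′ to 3′ on the strand of the entry. RMRP, the RNA component of the ribonuclease MRP, is 1 exon at chromosome 9:35657748-35658015 on the minus strand (268 bases), and it is shown because it had the highest level of these lincRNAs. Capitals mark its 2 GGAC matches. FP671120.3 is 1 of 4 entries on the minus strand of the unplaced scaffold GL000220.1, and the stretch shown is GL000220.1:110353-110590, 238 bases long. Its capitals mark the sites of the primers that the study used to amplify 18S rRNA, each 20 bases long. The reverse primer has the strand of the entry and the forward primer the opposite strand, so the entry runs antisense to 18S ribosomal RNA over this stretch. TERC, the RNA of telomerase, is shown by its first 120 bases (chromosome 3:169482729-169482848, minus strand), with the template of the telomere repeat, CTAACCCTAAC, in capitals.
RMRP: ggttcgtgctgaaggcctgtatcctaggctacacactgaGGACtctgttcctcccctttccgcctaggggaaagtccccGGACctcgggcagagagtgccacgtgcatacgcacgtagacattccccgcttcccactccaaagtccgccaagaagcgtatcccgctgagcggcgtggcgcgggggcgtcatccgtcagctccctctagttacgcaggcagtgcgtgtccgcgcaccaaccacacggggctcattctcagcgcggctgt
FP671120.3: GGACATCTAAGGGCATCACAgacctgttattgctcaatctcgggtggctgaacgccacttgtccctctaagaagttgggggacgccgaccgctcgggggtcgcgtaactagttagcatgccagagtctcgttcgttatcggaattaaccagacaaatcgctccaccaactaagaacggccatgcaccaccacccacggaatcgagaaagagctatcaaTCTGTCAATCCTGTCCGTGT
TERC: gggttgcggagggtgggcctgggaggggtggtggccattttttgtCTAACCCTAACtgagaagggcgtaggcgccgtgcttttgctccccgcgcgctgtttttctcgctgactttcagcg

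AC108752.1 and AC127024.5 are shown because they are among the lincRNAs listed at 0 in both libraries of 1 group and above 0 in both of the other. For AC108752.1 the last 200 bases of its more abundant transcript are given (chromosome 3:78340142-78340341, plus strand, exonic), with its GGAC match in capitals. For AC127024.5 the stretch is chromosome 17:29119418-29119630 on the plus strand, and the 133 bases in capitals lie opposite a coding-transcript exon of CRLF3. CYTOR and MIR4435-2HG on chromosome 2 share part of their sequence, shown by 100 bases of a near-identical exon of each (87820726-87820825, plus strand, and 112187098-112187197, minus strand) with the 2 bases that differ in capitals.
AC108752.1: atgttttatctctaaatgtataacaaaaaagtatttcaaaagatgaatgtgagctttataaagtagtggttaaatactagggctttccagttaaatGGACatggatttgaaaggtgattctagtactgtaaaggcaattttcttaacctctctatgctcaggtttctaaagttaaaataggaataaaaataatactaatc
AC127024.5: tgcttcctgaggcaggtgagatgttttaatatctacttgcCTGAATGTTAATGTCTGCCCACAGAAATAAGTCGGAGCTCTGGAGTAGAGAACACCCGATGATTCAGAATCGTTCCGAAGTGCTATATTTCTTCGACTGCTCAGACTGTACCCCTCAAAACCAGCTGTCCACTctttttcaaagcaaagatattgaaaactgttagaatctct
CYTOR: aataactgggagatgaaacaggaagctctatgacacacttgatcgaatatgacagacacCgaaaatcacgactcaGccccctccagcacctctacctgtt
MIR4435-2HG: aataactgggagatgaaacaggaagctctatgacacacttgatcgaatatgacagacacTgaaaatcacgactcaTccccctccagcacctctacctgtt

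GGAC was found in the first 268 bases of 63.6% of the 990 lincRNA transcripts of at least that length, and in 73.9% of 26520 protein-coding transcripts. In the last 200 bases it was found in 37.9% of 997 lincRNA and in 41.4% of 26565 protein-coding transcripts. The matches in RMRP and AC108752.1 are therefore of a kind that many transcripts hold, and they are given as a description only. The template motif CTAACCCTAAC was in the first 120 bases of 1 of 1001 lincRNA transcripts, which is TERC, and of 0 of 26591 protein-coding ones.

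Most of these lincRNAs were listed at low levels. Of the 1034 transcripts, 431 (41.7%) averaged 1 FPKM or more across the libraries, against 72.5% of the protein-coding transcripts. Summed per gene name, 340 of 728 lincRNAs had a mean of at least 1 FPKM, 50 reached 10 FPKM and 9 reached 100 FPKM. The other 388 names stayed under 1 FPKM and were not tested. In IgG RIP replicates 1 and 2, 41.7% and 42.1% of the lincRNA transcripts were listed at 0, and in KIAA1429 RIP replicates 1 and 2, 42.0% and 44.9%. For protein-coding transcripts these shares were 23.5% and 29.6% in IgG RIP, against 25.04% and 24.9% in KIAA1429 RIP. Only 240 lincRNA gene names were above 0 in all 4 libraries, and 261 were above 0 in a lone library. One listed transcript stood for 587 of the names, and the most, 17, belonged to MIR4435-2HG. Because the higher group mean was at least 0.502 FPKM for each member, any lincRNA lower than this in each group does not enter these counts.

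The lincRNA transcripts were short and had few exons. Of the 1034 transcripts, 1001 (96.8%) were found by their transcript identifier in a later GENCODE annotation of GRCh37, and 725 of these with the same coordinates. Over the 1001, the median spliced length was 888 bases, against 2121 bases for 26600 protein-coding transcripts, and the median number of exons was 2 against 7. A lone exon made up 25.2% of the lincRNA transcripts and 1.62% of the protein-coding ones. GGAC occurred 3.33 times per kilobase of lincRNA and 3.85 times per kilobase of protein-coding transcript, and GGACT 0.976 and 0.986 times. The poly(A) signal AATAAA lay in the last 50 bases of 38.8% of the lincRNA transcripts and 47.5% of the protein-coding ones. In the later annotation 952 of the 1001 were lncRNA genes and 17 were protein-coding genes. An exon of a protein-coding transcript overlapped 52 of them on the same strand and 52 on the opposite strand, while 903 had no such overlap. Since the strandedness of the libraries is not stated, reads over such an overlap cannot be told apart between the lincRNA and its neighbor. By position, 5.61% of the lincRNA transcripts lay on the X chromosome and 9.77% on chromosome 2, against 3.36% and 6.59% of the protein-coding transcripts.

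The labelled liver cancer line could be checked by its markers. The hepatocyte markers ALB, AFP, APOA1, APOA2, APOB, SERPINA1, TTR and FGB were above 0 in all libraries. AFP, the most abundant of these on average, was at 121 and 128 FPKM in IgG RIP against 99.1 and 115 FPKM in KIAA1429 RIP. The keratins KRT8 and KRT18 and EPCAM were listed, and CDH1 was not. Of 4 leukocyte markers CD68 and LYZ were listed and PTPRC and CD3E were not, with a summed level of 52.0 and 87.0 FPKM in IgG RIP against 38.6 and 59.4 FPKM in KIAA1429 RIP, most of it CD68. Of 3 fibroblast markers COL3A1 and PDGFRB were listed and COL1A1 was not, and of the 3 endothelial markers PECAM1, VWF and CDH5 none was listed.

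The summed lincRNA level was lower in KIAA1429 RIP than in IgG RIP, and it was highest in IgG RIP replicate 2. It was 12719 and 21826 FPKM in IgG RIP replicates 1 and 2, and 11385 and 11134 FPKM in KIAA1429 RIP replicates 1 and 2. Both KIAA1429 RIP libraries lay below both IgG RIP libraries, but the IgG RIP libraries differed from each other by 1.72-fold. As a share of all FPKM in a library, the lincRNAs held 4.30% and 6.92% in IgG RIP, against 3.38% and 3.27% in KIAA1429 RIP. The group means were 17272 ± 6439 FPKM (SD, n = 2) and 11259 ± 178 FPKM (SD, n = 2), a log2 ratio of -0.62. An exact permutation test of the sum, two-sided over the libraries, gave p = 0.333, and so did that of the share, which is the smallest p that 2 against 2 libraries can give. Without IgG RIP replicate 2 the log2 ratio of the sums was -0.18, and without IgG RIP replicate 1 it was -0.95. The values are of RNA that came down from bulk lysates with each antibody, and they do not give the level of these lincRNAs in the cells. Whether the replicates came from separate cultures is not stated, so the p-values measure only the spread between these libraries, which may be technical.

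RMRP and the 4 entries of GL000220.1 made up most of this sum. Together they held 79.5% and 84.7% of it in IgG RIP, against 77.0% and 75.7% in KIAA1429 RIP. RMRP alone was at 5003 and 9229.9 FPKM in IgG RIP against 5349 and 5049 FPKM in KIAA1429 RIP. IgG RIP replicate 2 stood above the other 3 libraries, which were close to each other, and in FPKM the groups overlapped. As a share of all FPKM in a library RMRP held 1.69% and 2.93% in IgG RIP, against 1.59% and 1.48% in KIAA1429 RIP, and on that scale the groups did not overlap. The limma log2 fold change of RMRP on log2(FPKM + 1), KIAA1429 RIP against IgG RIP, was -0.39 (SE 0.66, adjusted p = 0.998), and it was 0.05 without IgG RIP replicate 2 and -0.83 without IgG RIP replicate 1. RMRP is made by RNA polymerase III and is known as an RNA without a poly(A) tail, although the libraries were made from poly(A)-selected RNA.

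The 4 entries antisense to 18S ribosomal RNA were lower in KIAA1429 RIP as a sum. Their sum was 5114 and 9266 FPKM in IgG RIP against 3421 and 3384 FPKM in KIAA1429 RIP. The groups did not overlap, with a log2 ratio of -1.08 over all libraries and -0.59 without IgG RIP replicate 2. FP236383.3, the most abundant, was at 2448 and 4272 FPKM in IgG RIP against 1558 and 1524 FPKM in KIAA1429 RIP (log2 fold change -1.07, SE 0.51, limma adjusted p = 0.998), and at a log2 fold change of -0.67 without IgG RIP replicate 2. FP671120.3 was at 1388 and 2546 FPKM against 979 and 945 FPKM, a log2 fold change of -0.97 (-0.53 without IgG RIP replicate 2). FP236383.2 was at 1248 and 2379.6 FPKM against 835 and 911 FPKM, with a log2 fold change of -0.98 (-0.52 without IgG RIP replicate 2). In each of these 3 both KIAA1429 RIP libraries were below both IgG RIP libraries, and the IgG RIP libraries were further apart than the KIAA1429 RIP ones. The 3 are not separate observations. The loci of FP236383.3 and FP671120.3 (GL000220.1:153803-154725 and 109831-110753, each 923 bases) differed at 0 bases, and FP236383.2 and FP671120.4 cover the same 923 bases as FP236383.3. Reads could be divided among them in any way, and without stated strandedness reads of 18S ribosomal RNA itself cannot be told apart from reads of the entries. The fourth entry, FP671120.4, named here after its values were seen, was at 30.1 and 68.2 FPKM in IgG RIP against 49.3 and 4.56 FPKM in KIAA1429 RIP, so its groups overlapped.

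Once RMRP and the 4 entries were set aside, the groups were closer, and whether they overlapped depended on the scale. The other 1029 lincRNA transcripts summed to 2603 and 3330.0 FPKM in IgG RIP, with 2615 and 2701 FPKM in KIAA1429 RIP. In FPKM both KIAA1429 RIP libraries lay between the IgG RIP libraries. The log2 ratio of these sums was -0.16, and it turned to 0.030 without IgG RIP replicate 2. As a share of all FPKM in a library, these transcripts held 0.881% and 1.06% in IgG RIP, against 0.776% and 0.794% in KIAA1429 RIP. On that scale both KIAA1429 RIP libraries were below both IgG RIP libraries, with IgG RIP replicate 2 left out as well. These sums were chosen after seeing the data.

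**Figure D1:**
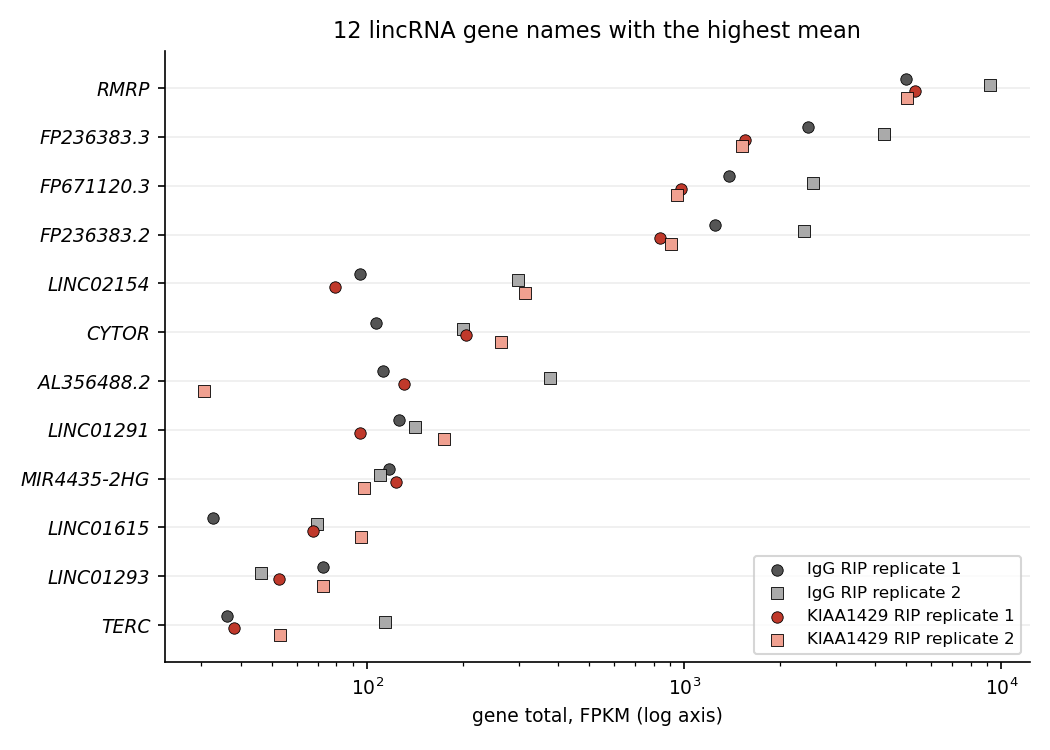
Gene totals of the 12 lincRNA gene names with the highest mean level, in FPKM on a log axis, with a point for each of the 4 libraries (circles for replicate 1, squares for replicate 2, grey for IgG RIP, red for KIAA1429 RIP). RMRP and FP236383.3 are the highest. In FPKM the groups do not overlap for CYTOR, by a narrow margin (200.1 against 205 FPKM), nor for the 3 entries whose names start with FP.

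Below these, 8 lincRNA names completed the 12 with the highest means, and CYTOR, a cytoskeleton regulator RNA linked to many cancers, was the only one of the 8 with groups that did not overlap in FPKM. As a share of all FPKM in a library its groups overlapped, with 0.0361% and 0.0634% in IgG RIP against 0.0609% and 0.0779% in KIAA1429 RIP. CYTOR was at 107 and 200.1 FPKM in IgG RIP against 205 and 265 FPKM in KIAA1429 RIP. The gap between the groups was narrow, since IgG RIP replicate 2 and KIAA1429 RIP replicate 1 nearly met. Its log2 fold change was 0.67 (SE 0.38, limma adjusted p = 0.998), with 1.12 when IgG RIP replicate 2 was left out and 0.22 when IgG RIP replicate 1 was. MIR4435-2HG, which shares sequence with CYTOR and hosts a microRNA, was at 117 and 109.5 FPKM in IgG RIP against 123 and 97.7 FPKM in KIAA1429 RIP. Its groups overlapped and its log2 fold change was -0.05 (SE 0.29). Of the stretches of 31 bases in CYTOR's matched transcripts 48.7% also occur in MIR4435-2HG's, and 20.9% of those in MIR4435-2HG occur in CYTOR, so reads of the pair are uncertain in their origin. The most abundant CYTOR transcript was at 60.5 and 149 FPKM in IgG RIP against 167 and 219 FPKM in KIAA1429 RIP, again with IgG RIP replicate 1 lowest.

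LINC02154 on the X chromosome separated the replicate numbers rather than the groups. It was at 95.1 and 298 FPKM in IgG RIP against 79.1 and 315 FPKM in KIAA1429 RIP, so that replicate 2 was high in both groups. AL356488.2 (chromosome 1:109642815-109643241, 1 transcript) varied most among the 8, with 112 and 378 FPKM in IgG RIP against 131 and 30.6 FPKM in KIAA1429 RIP. Its groups overlapped, and its log2 fold change of -1.68 (SE 0.77, limma adjusted p = 0.998) was -0.65 without KIAA1429 RIP replicate 2 and -0.81 without IgG RIP replicate 2, but -2.71 without KIAA1429 RIP replicate 1 and -2.55 without IgG RIP replicate 1. TERC was at 36.2 and 114 FPKM in IgG RIP against 38.0 and 52.9 FPKM in KIAA1429 RIP. As for RMRP, IgG RIP replicate 2 was the highest library, and the log2 fold change of TERC went from -0.51 (SE 0.53) to 0.30 without it and to -1.33 without IgG RIP replicate 1.

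LINC01615 was at 32.6 and 69.6 FPKM in IgG RIP against 67.6 and 95.3 FPKM in KIAA1429 RIP, with IgG RIP replicate 1 the lowest library. Its groups just overlapped, and its log2 fold change of 0.74 (SE 0.42, limma adjusted p = 0.998) was 0.20 without IgG RIP replicate 1 and 1.28 without IgG RIP replicate 2. The neighbors LINC01291 and LINC01293 on the plus strand of chromosome 2 showed no separation of the groups. LINC01291 was at 126 and 142 FPKM in IgG RIP against 95.1 and 174 FPKM in KIAA1429 RIP. LINC01293 was at 72.5 and 46.2 FPKM against 52.8 and 72.8 FPKM. In both, the libraries of a group differed by more than the group means.

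Across the 340 lincRNA gene totals, no lincRNA passed the test between KIAA1429 RIP and IgG RIP. The call was a limma log2 fold change beyond 1 with an adjusted p under 0.05, adjusted over all 11365 gene totals. It was met by 0 of 340 lincRNA gene totals and by 0% of all gene totals, and the lowest adjusted p of a lincRNA was 0.886. At an unadjusted limma p under 0.05 there were 29 lincRNA gene totals (8.53%), against 4.6% of all gene totals. With a log2 fold change beyond 1 as well, 14 were higher in KIAA1429 RIP (4.12%, against 2.35% of all gene totals) and 15 were lower (4.41%, against 1.19%). The count higher fell to 8 with a pseudocount of 0.1 (2.35%, against 2.14%) and to 7 with 0.01 (2.06%, against 1.85%), so with these it was near the share over all gene totals. Among features with a mean of at least 5 FPKM, 4 were higher (4.08%, against 1.97%) and 4 lower (4.08%, against 0.788%). With pseudocounts of 0.1 and 0.01 the lower count was 12 (3.53%, against 1.05%) and 10 (2.94%, against 0.862%). Its share thus stayed above that over all gene totals with these. Both counts also depended on which library was left out. At transcript level the call was met by 0 of 431 lincRNA transcripts and 0% of all 23375, with 15 at an unadjusted limma p under 0.05 (3.48%, against 5.36%). Of these, 5 were higher (1.16%, against 2.89%) and 10 were lower (2.32%, against 2.32%), so the larger share among gene totals was not seen among transcripts.

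The lincRNA fold changes were spread widely around a median slightly below 0. The median log2 fold change of the 340 lincRNA gene totals was -0.14, with quartiles of -0.64 and 0.45, and 142 were above 0 and 198 below. Over all gene totals the median was 0.02, with quartiles of -0.28 and 0.35, and 51.4% were above 0, against 41.8% of the lincRNAs. Leaving out IgG RIP replicate 2 brought the lincRNA median to -0.11 against -0.08 over all gene totals, so the difference nearly went. It was -0.22 against 0.09 without IgG RIP replicate 1, -0.21 against 0.00 without KIAA1429 RIP replicate 1 and -0.02 against 0.06 without KIAA1429 RIP replicate 2. Both KIAA1429 RIP libraries were above both IgG RIP libraries for 49 lincRNA gene totals (14.4%, against 16.6% of all gene totals) and below them for 71 (20.9%, against 15.2%). With any 1 library left out, 3 libraries separate more readily, and the counts ran from 86 (without IgG RIP replicate 1) to 114 (without KIAA1429 RIP replicate 2) higher and from 109 (without KIAA1429 RIP replicate 2) to 145 (without IgG RIP replicate 1) lower. Without IgG RIP replicate 1 these were 24.8% higher and 41.8% lower, against 40.1% and 29.6% of all gene totals, but without IgG RIP replicate 2 they were 28.0% and 36.9%, against 29.4% and 37.8%, so the lincRNAs were then no more often lower. They were 28.4% and 36.4%, against 30.5% and 31.1%, without KIAA1429 RIP replicate 1, and 31.6% and 30.2%, against 34.1% and 29.5%, without KIAA1429 RIP replicate 2. Of the 49, 6 were listed at 0 in both IgG RIP libraries, and of the 71, 5 were listed at 0 in both KIAA1429 RIP libraries. By level, the lower group held 21 of 133 gene totals with a mean of 1 to 2 FPKM, 28 of 109 at 2 to 5 FPKM, 11 of 48 at 5 to 10 FPKM and 11 of 50 at 10 FPKM or more, while the higher group held 14, 17, 12 and 6. The lower shares were 15.8%, 25.7%, 22.9% and 22.0%, against 16.4%, 15.1%, 16.1% and 14.1% of protein-coding gene totals, so at 1 to 2 FPKM the lincRNAs were near the protein-coding share. The higher shares of protein-coding gene totals were 14.2%, 15.9%, 15.3% and 18.1%. Among transcripts, the group mean was at least 2-fold higher in KIAA1429 RIP for 91 of 431 (21.1%, against 19.9% of all transcripts) and at least 2-fold lower for 109 (25.3%, against 20.3%). Without KIAA1429 RIP replicate 1 the latter count was 171 (38.9%, against 30.4%), and without IgG RIP replicate 2 it was 86 (20.3%, against 19.7%). Both IgG RIP libraries were at 0 for 28 of the 91, and both KIAA1429 RIP libraries for 32 of the 109.

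**Figure D2:**
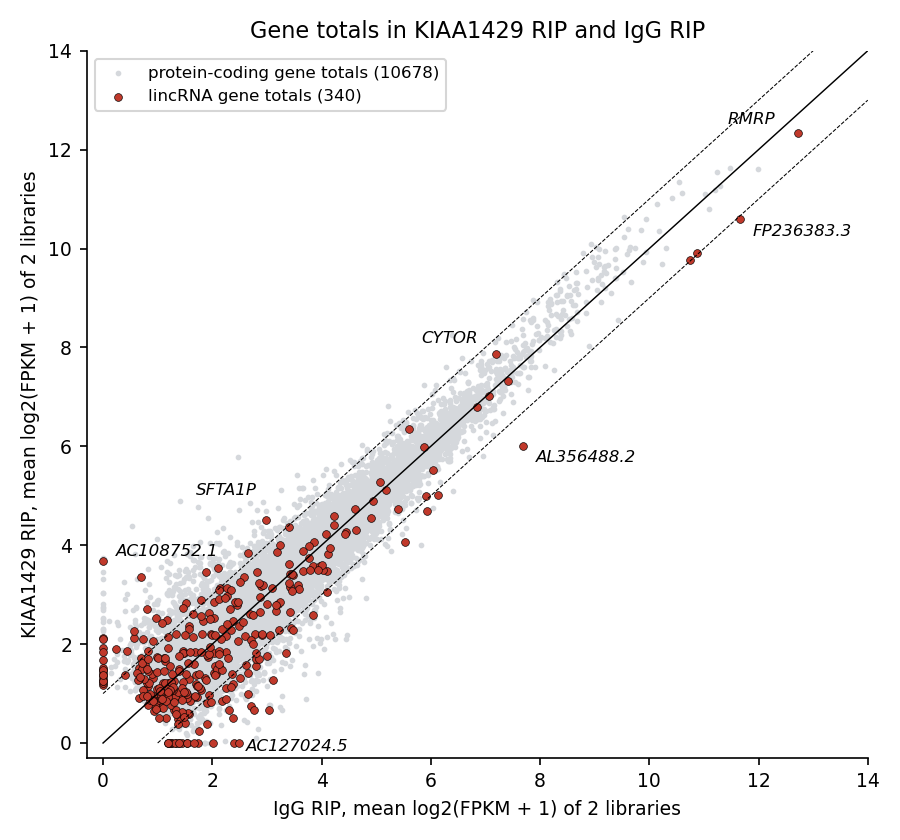
Mean log2(FPKM + 1) of the 2 KIAA1429 RIP libraries against that of the 2 IgG RIP libraries for 340 lincRNA gene totals (red) and 10678 protein-coding gene totals (grey), with the line of equal values and dashed lines at a difference of 1. The lincRNAs lie on both sides of the line, most at low levels, and the points on an axis are listed at 0 in both libraries of a group.

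The lincRNAs of 10 FPKM or more with groups that did not overlap can be named in full, and those outside the rule for naming genes were chosen after their values were seen. Higher in both KIAA1429 RIP libraries were CYTOR, LINC01234, SFTA1P, EBLN3P, LINC02454 and DUBR. SFTA1P, a surfactant-associated pseudogene RNA, had the widest separation of the 6, with 7.34 and 6.57 FPKM in IgG RIP against 26.7 and 17.5 FPKM in KIAA1429 RIP. Both KIAA1429 RIP libraries were more than 2-fold above both IgG RIP libraries, with a log2 fold change of 1.51 (SE 0.37, unadjusted p = 0.0051, limma adjusted p = 0.948). EBLN3P was at 6.44 and 14.1 FPKM in IgG RIP against 21.1 and 18.2 FPKM in KIAA1429 RIP. Lower in both KIAA1429 RIP libraries were the 3 FP entries and MIR100HG, AC007952.4, Z93241.1, AL360012.1, AC012313.1, RP11-343N15.5, AC005332.9 and LINC00294. AC007952.4 was at 44.7 and 80.9 FPKM in IgG RIP against 30.4 and 20.0 FPKM in KIAA1429 RIP. Z93241.1 was at 68.8 and 69.2 FPKM in IgG RIP against 46.4 and 21.4 FPKM in KIAA1429 RIP. For AC007952.4 and Z93241.1 the log2 fold changes were -1.25 (SE 0.39) and -1.11 (SE 0.40), and neither passed the adjustment (limma adjusted p = 0.998 for each). The size for Z93241.1 depended on KIAA1429 RIP replicate 2, which was at 21.4 FPKM.

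The widest gaps between the groups on log2(FPKM + 1) were among lincRNAs of low level, and the 6 in each direction are described. They were chosen for these gaps, so that their separation is a description. AC108752.1 (chromosome 3:78316090-78343881, plus strand) was listed at 0 in both IgG RIP libraries and was at 6.28 and 21.8 FPKM in KIAA1429 RIP. It had the lowest p of the lincRNAs, with a log2 fold change of 3.69 (SE 0.67, unadjusted p = 9.5e-04, limma adjusted p = 0.886), a value that depends on the pseudocount since a group was at 0. CR381653.1 on chromosome 21 was at 1.63 and 0 FPKM in IgG RIP against 7.14 and 11.7 FPKM in KIAA1429 RIP. AL392172.1 on chromosome 1 was listed at 0 in IgG RIP and at 3.36 and 3.24 FPKM in KIAA1429 RIP. Its 2 KIAA1429 RIP values came from different transcripts, each listed in a lone library. The 2 transcripts overlap an exon of DISP1 on the same strand over 82 of 771 and 94 of 890 bases. Reads over these bases are uncertain in their origin. AP000251.1 (2.62 and 1.86 FPKM), AC087636.1 (5.84 and 1.77 FPKM) and LINC01444 (1.49 and 4.21 FPKM in KIAA1429 RIP replicates 1 and 2) were also listed at 0 in both IgG RIP libraries.

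In the other direction, AL589986.2 (chromosome 1:152178334-152179533, plus strand) was at 5.54 and 3.80 FPKM in IgG RIP and was listed at 0 in both KIAA1429 RIP libraries. AC127024.5 was at 4.997 and 3.60 FPKM in IgG RIP and listed at 0 in KIAA1429 RIP. Of its 462 bases 133 lie opposite an exon of CRLF3, so reads over these 133 bases cannot be told apart between the pair. AC090833.1 on chromosome 11 was above 0 in all libraries, at 5.79 and 5.31 FPKM in IgG RIP against 0.854 and 0.537 FPKM in KIAA1429 RIP. Its groups lay well apart, with a log2 fold change of -1.95 (SE 0.52, unadjusted p = 0.0074, limma adjusted p = 0.993). AC011374.2 was at 3.86 and 2.31 FPKM in IgG RIP and listed at 0 in KIAA1429 RIP. AP000873.2 (2.50 and 1.88 FPKM in IgG RIP) and AL133410.1 (1.87 and 2.85 FPKM in IgG RIP) were listed at 0 in KIAA1429 RIP as well. In each of these last 2, different transcripts gave the IgG RIP values, and a transcript of AP000873.2 lies opposite an exon of PCF11 over 175 bases.

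**Figure D3:**
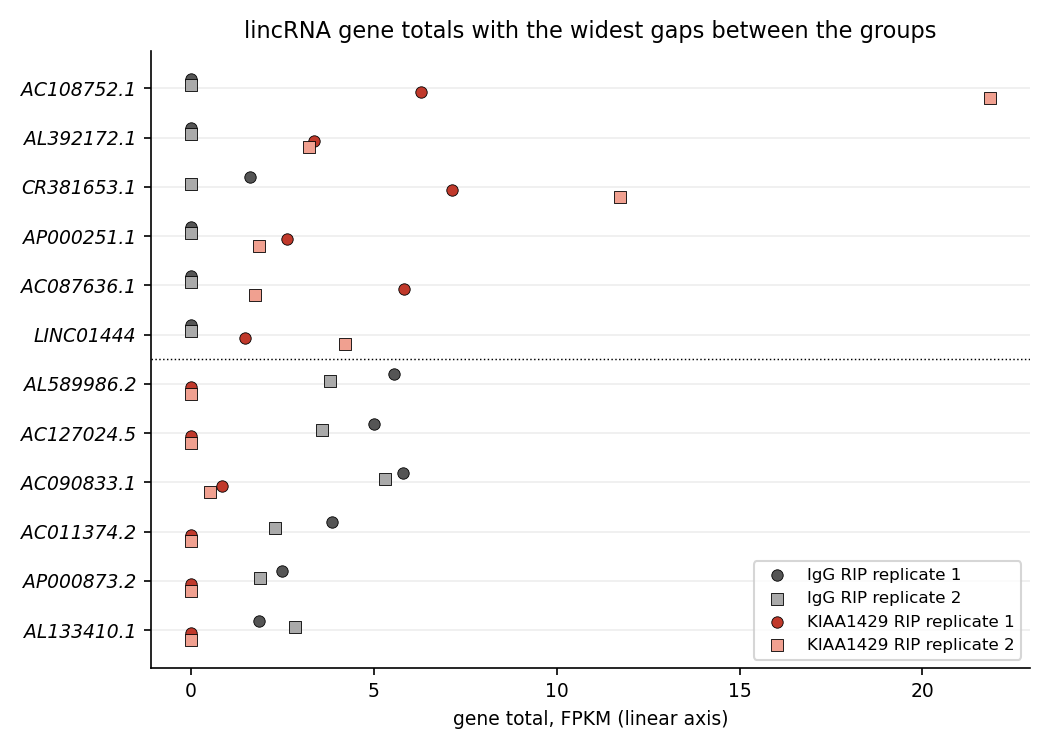
Gene totals in FPKM, linear axis, of the 6 lincRNAs with the widest gap in favor of KIAA1429 RIP (above the dotted line) and the 6 with the widest gap in favor of IgG RIP (below it), with a point for each of the 4 libraries. Points at 0 are libraries in which the lincRNA is listed at 0, and AC108752.1 reaches the highest value, 21.8 FPKM.

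Among 18 listed lincRNAs with known links to cancer, 16 were tested, with a median log2 fold change of 0.12 against 0.02 over all gene totals. CYTOR, LINC00963, LINC01006 and LINC01234 were higher in both KIAA1429 RIP libraries, and HCG11, LINC00467 and LINC00511 were lower. Beside these 4 and 3 of 16, the shares over all gene totals were 16.6% higher and 15.2% lower. Here and in the lists that follow, members given without values were named after their values were seen. LINC01234 was at 20.1 and 15.9 FPKM in IgG RIP against 23.3 and 23.0 FPKM in KIAA1429 RIP, with a log2 fold change of 0.36 (SE 0.32). The groups did not overlap, but the difference was about that between the IgG RIP replicates. PVT1, the neighbor of MYC, was at 23.1 and 18.3 FPKM in IgG RIP against 24.8 and 12.5 FPKM in KIAA1429 RIP, and its groups overlapped. None of the 16 was called (lowest limma adjusted p = 0.998).

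Of the lincRNAs known from liver and endoderm, 2 were listed, and their median log2 fold change was 0.08. HULC, first described as highly up-regulated in liver cancer, was at 4.51 and 0 FPKM in IgG RIP against 2.05 and 1.84 FPKM in KIAA1429 RIP. Its IgG RIP libraries were the highest and the lowest of the 4, and its log2 fold change of 0.33 was -0.90 without IgG RIP replicate 2, 1.56 without IgG RIP replicate 1, and 1.59 with a pseudocount of 0.1, with 1 library at 0. LINC00261, a lincRNA of the endoderm next to FOXA2, was at 0.914 and 1.98 FPKM in IgG RIP against 1.85 and 0.585 FPKM in KIAA1429 RIP, with overlapping groups.

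The lincRNAs linked to p53 and DNA damage lay mostly lower in KIAA1429 RIP. Of 6 tested, 5 had a log2 fold change below 0 and the median was -0.74, against 0.02 over all gene totals, and none was called (lowest limma adjusted p = 0.998). MIR22HG, the host of a microRNA, was at 5.03 and 7.06 FPKM in IgG RIP against 1.86 and 3.34 FPKM in KIAA1429 RIP. LINC00472 was at 5.29 and 12.7 FPKM in IgG RIP against 3.02 and 4.87 FPKM in KIAA1429 RIP. LINC01021, also called PURPL and induced by p53, was at 4.15 and 7.65 FPKM against 3.73 and 2.41 FPKM. In these 3 and in MIR34AHG both KIAA1429 RIP libraries were below both IgG RIP libraries (against 15.2% of all gene totals), and in LINC00472 IgG RIP replicate 2 stood well above the rest. Without that library the log2 fold change of LINC00472 went from -0.94 to -0.37, and that of LINC01021 from -0.73 to -0.36. How far the list's median depends on that library was not tested. TP53TG1, a p53 target named here after its values were seen, went the other way, with 0 and 2.86 FPKM in IgG RIP against 3.34 and 6.58 FPKM in KIAA1429 RIP. PVT1 was the remaining member.

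MicroRNA host lincRNAs were also lower at the median. Of 14 listed, 10 were tested, 8 of them with a log2 fold change below 0, and the median was -0.49, against 0.02 over all gene totals. How far this median depends on a single library was not tested. MIR100HG was at 14.01 and 16.6 FPKM in IgG RIP against 11.3 and 9.47 FPKM in KIAA1429 RIP, with a log2 fold change of -0.52 (SE 0.35). MIR100HG, MIR181A1HG, MIR22HG and MIR34AHG were lower in both KIAA1429 RIP libraries, 0 hosts were higher in both (against 15.2% and 16.6% of all gene totals), and none was called (lowest limma adjusted p = 0.998). MIR22HG and MIR34AHG are also among the p53-linked lincRNAs, so the lists are not separate. MIR137HG was at 38.9 and 27.1 FPKM in IgG RIP against 55.5 and 25.8 FPKM in KIAA1429 RIP. MIR503HG was at 26.9 and 31.2 FPKM in IgG RIP against 39.8 and 12.4 FPKM in KIAA1429 RIP. In both, the KIAA1429 RIP replicates were more than 2-fold apart and the groups overlapped, and the log2 fold change changed sign without KIAA1429 RIP replicate 1 for MIR137HG (0.22 to -0.32, and to -0.03 without IgG RIP replicate 2) and without KIAA1429 RIP replicate 2 for MIR503HG (-0.36 to 0.44).

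Of 5 listed lincRNAs of imprinted or X-inactivation loci, 4 were tested, with a median log2 fold change of -0.63, and 2 were lower in both KIAA1429 RIP libraries (against 15.2% of all gene totals), of which 1 is not named with a value here. FTX, a lincRNA of the X-inactivation center, was the other, at 7.66 and 4.58 FPKM in IgG RIP against 1.91 and 2.62 FPKM in KIAA1429 RIP. Its log2 fold change was -1.10 (SE 0.50, limma adjusted p = 0.998). JPX, its neighbor, was at 8.37 and 15.9 FPKM in IgG RIP against 20.8 and 4.72 FPKM in KIAA1429 RIP, so the KIAA1429 RIP libraries were the highest and the lowest. FIRRE, a nuclear lincRNA of the X chromosome, was at 0.348 and 1.999 FPKM against 1.92 and 2.67 FPKM, with overlapping groups. PWAR6, of the imprinted Prader-Willi region, had a mean under 1 FPKM and was not tested.

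Of 7 listed lincRNAs with a reported micropeptide, 6 were tested, with a median log2 fold change of -0.19, LINC00467 and MIR22HG lower in both KIAA1429 RIP libraries and 0 higher, against 15.2% and 16.6% of all gene totals. DLEU1 was at 12.5 and 12.8 FPKM in IgG RIP against 14.1 and 10.7 FPKM in KIAA1429 RIP, close in all 4 libraries. LINC01116 was at 12.8 and 7.16 FPKM against 12.1 and 10.7 FPKM. CRNDE, named for its expression in colorectal neoplasia, was at 3.57 and 1.64 FPKM in IgG RIP against 2.93 and 7.99 FPKM in KIAA1429 RIP, where replicate 2 stood above the other libraries. By the form of the name, 197 tested lincRNAs named after genomic clones had a median log2 fold change of -0.22, 84 with LINC numbers -0.05, and 59 with another symbol -0.05. Of the clone-named lincRNAs 43 were lower and 24 higher in both KIAA1429 RIP libraries, of the LINC-numbered 16 and 15, and of the others 12 and 10, beside 15.2% and 16.6% of all gene totals. None of the lincRNAs on these lists or in these classes was called, with a lowest limma adjusted p of 0.886.

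Replicates differed more for lincRNAs than for protein-coding genes of like level. At a mean of 1 to 2 FPKM, the median absolute difference of log2(FPKM + 1) between IgG RIP replicates was 0.73 for 133 lincRNA gene totals and 0.60 for 1001 protein-coding ones, and between KIAA1429 RIP replicates it was 0.82 and 0.59. At 10 FPKM or more it was 0.62 and 0.45 for the IgG RIP replicates and 0.45 and 0.33 for those of KIAA1429 RIP, over 50 lincRNA and 5080 protein-coding gene totals. Across the 340 lincRNA gene totals, which are not independent replicates, Spearman's rho of the levels was 0.555 within IgG RIP, 0.589 within KIAA1429 RIP and 0.493 to 0.568 between libraries of different groups. For 10678 protein-coding gene totals it was 0.854 and 0.875 within the groups and 0.837 to 0.889 between them. The highest value between the groups, 0.568 for the lincRNAs, was above that of the IgG RIP replicates.

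**Figure D4:**
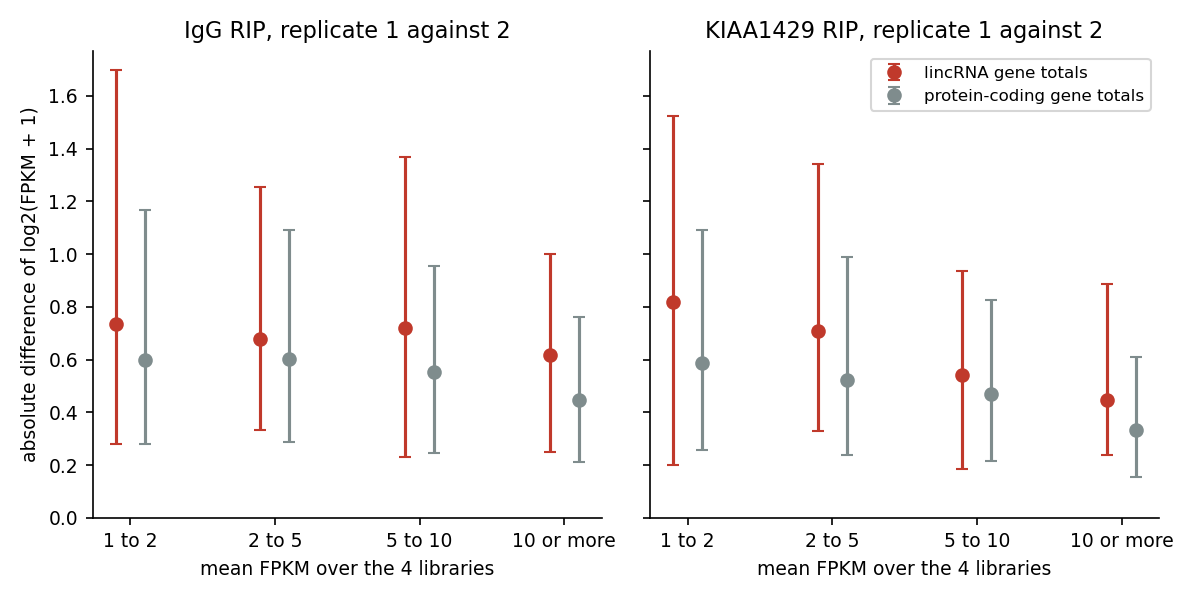
Median absolute difference of log2(FPKM + 1) between the replicates of IgG RIP (left) and of KIAA1429 RIP (right), by mean level, for lincRNA (red) and protein-coding (grey) gene totals, with bars from the first to the third quartile. The lincRNA medians lie above the protein-coding ones at each of the 4 levels in both groups.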

How the data were processed

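RIP-seq with anti-KIAA1429 (2 replicates) or normal IgG (2 replicates) was grouped by the sample titles. The authors selected poly(A) RNA, made random-primed libraries and aligned reads to GRCh37/hg19 with HISAT2 according to the study's methods, while the submitters' processing notes list Bowtie2 2.1.0 without its role. The authors deposited FPKM per transcript for each library, and the tool, the annotation release and the strandedness are not given in the sources used here. Depth per library is unknown, and precision was judged from replicates.

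The test was limma (version 3.58.1, R 4.3.3), two-sided, on log2(FPKM + 1), with lmFit and a trended eBayes fit and p-values adjusted by Benjamini-Hochberg over every feature averaging 1 FPKM or more, because the count test of the study's methods cannot be run on FPKM. Fold changes on this scale understate those of low transcripts. Sums, exact permutation tests and counts used Python 3.11.15, numpy 2.4.6, pandas 2.3.3 and scipy 1.17.1, and figures matplotlib 3.10.9. Sequences and features came from GENCODE release 44 lifted to GRCh37.

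Named genes were the 12 lincRNA names with the highest mean, the 6 gene totals with the widest gap between the groups in each direction, up to 4 most abundant members of each list, any called lincRNA, and the transcripts of the 3 most abundant names (1 each). XIST, TSIX and Y-linked lincRNAs were never named with a value. The lists were cancer-associated, liver and endoderm, p53 and DNA damage, imprinted and X-inactivation locus, reported micropeptide and microRNA host lincRNAs, with 3 classes by name. Members and lists were chosen with earlier results of these data known. Alternatives were pseudocounts of 0.1 and 0.01, no filter, a filter of 5 FPKM, median scaling, quantile normalization, a replicate block, no trend, each library left out, a gene's most abundant transcript, and all lincRNAs. Sums without RMRP and the 4 GL000220.1 entries were added after seeing the data.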

Additional observations from a re-analysis of the deposited data

How the results depend on the processing

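No lincRNA gene total was called by limma under the pseudocounts, filters, scalings or the fit without trend. The same held with the most abundant transcript of each gene and with all lincRNAs included. In the fit reported no lincRNA transcript was called either, and 29 gene totals and 15 transcripts were at an unadjusted limma p under 0.05. With the replicate number as a block, 1 lincRNA gene total was called (AC108752.1, adjusted p = 0.0375) and 0 transcripts, among 12 higher and 1 lower over all gene totals. Libraries with the same number shared little (correlation of deviations 0.017 over lincRNA gene totals and 0.187 over all gene totals), and the numbers come from titles only. With no filter, 74 gene totals were higher and 103 lower in both KIAA1429 RIP libraries (10.2% and 14.1%, against 15.5% and 14.9% of all gene totals), and 323 transcripts were at least 2-fold higher and 398 lower (31.2% and 38.5%, against 26.6% and 28.0% of all transcripts). At means of 5 FPKM or more, 18 and 22 gene totals were higher and lower in both KIAA1429 RIP libraries (18.4% and 22.4%, against 17.2% and 14.9%), and 10 and 13 of 93 transcripts were at least 2-fold apart (against 10.6% and 8.6%). These counts follow the number of features kept. With each library left out, the median log2 fold change of the lincRNA gene totals ran from -0.22 to -0.016, the gene totals with groups that did not overlap from 86 to 114 higher and from 109 to 145 lower, and the transcripts at least 2-fold lower from 86 (20.3%, against 19.7%) to 171 (38.9%, against 30.4%). The lone library of a group was then assumed to vary like the other group. The sum without RMRP and the 4 entries of GL000220.1 had a log2 ratio of 0.030 without IgG RIP replicate 2, with the opposite sign to the ratio of all lincRNAs, and the cause was not tested. Of 40 named lincRNAs in the fits, 14 changed sign without a library, and those chosen for groups that do not overlap cannot do so. Depth is unknown, so what it limits cannot be given.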
